A study of Mus musculus with 24 samples.

Results

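The transcripts described here encode 10 transcription factors that mark the liver and intestinal epithelial lineages, Hnf4a, Foxa1, Foxa2, Foxa3, Cebpa, Prox1, Onecut1, Cdx1, Cdx2 and Klf5. They were taken by gene name from 27962 names on the array, and every probe that carried 1 of these names was kept, 17 of 41174 probes in all. Where a gene had several probes, the probe with the highest mean intensity was its main probe. The samples were whole colon and liver from the same 12 female C57BL/6 mice, sampled at 12 weeks of age. All 12 mice were born to dams kept on the HF-low diet, rich in fat and short of both selenium and folate, through mating, gestation and lactation. After weaning 6 offspring stayed on that diet (HF-low-low) and 6 were moved to HF-suf, an equally high-fat diet that supplied enough of both nutrients (HF-low-suf). Each of the 24 arrays set the RNA of 1 tissue of 1 mouse, in Cy3, against a common reference pool in Cy5, and dyes were not swapped. The labels describe the pool as colon and liver RNA of the mice, the study's methods as intestinal and liver RNA. Some transcripts lay far below it in both tissues, such as the skeletal muscle gene Myh4 (mean log2 ratios of −4.97 in liver and −5.06 in colon) and the brush border enzyme Lct (−4.21 and −4.46). What the pool held, and the part of the unswapped dyes in such values, was not tested. Values are log2 ratios of sample to pool after background correction and loess normalization within the array. Given these genes, a value of 0 cannot be read as the average of the tissues, and values are compared only between samples. Such a ratio compares samples for 1 probe and says nothing of the level of one gene against another. The tissues are mixtures of cells, and fewer cells of a type cannot be told apart from less RNA per cell.

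Liver and intestine both form from the endoderm of the embryo, and overlapping sets of DNA-binding proteins keep each in its adult state. The forkhead proteins Foxa1, Foxa2 and Foxa3 open chromatin in endoderm. Hnf4a is a nuclear receptor that both hepatocytes and enterocytes require, while Cebpa, Prox1 and Onecut1 (also called HNF-6) act in hepatocytes or during liver growth. The homeodomain proteins Cdx1 and Cdx2 set intestinal identity, and Klf5 is a zinc finger protein of dividing intestinal crypt cells.

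The sequence just upstream of a transcription start carries many of the sites by which such factors act on one another's genes. Windows of 250 bases that end at the base before a RefSeq start (build GRCm38.p6) were read for 8 of the 10 genes, 12 windows in all. In each, 6 motifs were searched on both strands, and capitals mark the matches. Hnf4a is shown because it has 2 starts, and the downstream start is the one known as P1, the promoter of adult hepatocytes. Cdx2 and Onecut1 are shown because their measured differences between the tissues were large and ran in opposite directions.

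Hnf4a, upstream start, chr2:163506607-163506856, plus strand: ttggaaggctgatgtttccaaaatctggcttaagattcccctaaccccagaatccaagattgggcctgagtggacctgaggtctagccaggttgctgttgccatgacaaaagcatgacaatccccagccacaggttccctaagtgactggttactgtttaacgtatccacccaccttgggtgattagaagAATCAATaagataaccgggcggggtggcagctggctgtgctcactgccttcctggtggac
Hnf4a, downstream start, chr2:163546905-163547154, plus strand: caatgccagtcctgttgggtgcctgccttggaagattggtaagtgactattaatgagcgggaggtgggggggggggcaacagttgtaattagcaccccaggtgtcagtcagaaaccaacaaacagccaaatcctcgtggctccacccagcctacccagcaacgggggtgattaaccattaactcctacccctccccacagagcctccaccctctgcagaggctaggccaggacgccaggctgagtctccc
Cdx2, chr5:147307250-147307499, minus strand: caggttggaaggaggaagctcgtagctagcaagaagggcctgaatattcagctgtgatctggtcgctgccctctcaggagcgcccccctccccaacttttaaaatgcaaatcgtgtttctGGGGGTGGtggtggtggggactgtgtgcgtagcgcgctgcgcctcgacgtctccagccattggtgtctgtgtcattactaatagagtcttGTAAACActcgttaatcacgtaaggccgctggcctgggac
Onecut1, chr9:74861671-74861920, plus strand: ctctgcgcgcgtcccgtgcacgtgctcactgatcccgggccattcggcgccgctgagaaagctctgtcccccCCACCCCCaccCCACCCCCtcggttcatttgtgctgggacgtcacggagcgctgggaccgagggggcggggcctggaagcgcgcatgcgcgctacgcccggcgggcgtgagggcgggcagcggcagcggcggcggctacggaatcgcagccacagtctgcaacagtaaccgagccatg

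The upstream Hnf4a window held the letters of an ONECUT site, ATTGATT read on the opposite strand, which 2.99% of 32851 RefSeq windows of this length held as ATTGATT or ATCGATT. The downstream Hnf4a window held none of the motifs. The Cdx2 window held a FOXA motif (TGTTTAC or TGTTTGC, in 7.29% of windows) on the opposite strand and a KLF motif (GGGNGTGG, in 15.9%). The Onecut1 window held 2 KLF motifs. FOXA motifs also stood upstream of Foxa1 and of 1 of the 2 Prox1 starts, and KLF motifs upstream of Foxa3 and of 2 of the 3 Foxa2 starts. A CDX motif (TTTATNG, in 9.81% of windows) stood upstream of Cebpa and Foxa3, and an ONECUT motif upstream of the remaining Foxa2 start. Both CDX matches read CTATAAA in the window, which holds the letters TATAAA, and began 31 (Cebpa) and 37 (Foxa3) bases before the start. Matches to CAAAGTCCA or CAAAGTTCA (HNF4, in 0.715% of windows) and TTGCNNAA (CEBP, in 9.56%) were found in 0 of the 12 windows. These matches describe letters only.

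The array read each transcript with probes of 60 bases. Shown are the main probes of Onecut1 and Klf5, which carried large differences in opposite directions, and the additional probes of Cebpa and Hnf4a, which repeated the sign of their main probes. The array files place them on build mm7, which is not the build of the windows above.

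Onecut1, main probe, chr9:74927941-74928000: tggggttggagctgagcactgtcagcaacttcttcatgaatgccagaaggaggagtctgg
Klf5, main probe, chr14:93704580-93714312: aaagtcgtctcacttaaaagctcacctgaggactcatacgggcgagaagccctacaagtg
Cebpa, additional probe, chr7:32010056-32010115: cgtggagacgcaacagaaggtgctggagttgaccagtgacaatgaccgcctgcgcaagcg
Hnf4a, additional probe, chr2:163293456-163293515: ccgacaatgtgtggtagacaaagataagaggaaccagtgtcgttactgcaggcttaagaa

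The 60 bases of the Klf5 probe span 9733 bases of the genome, so the probe crosses at least 1 intron. Further main probes lie, in mm7, at chr2:163313228-163313287 (Hnf4a), chr12:55476083-55476142 (Foxa1), chr2:147783819-147783878 (Foxa2), chr7:16696078-16696137 (Foxa3), chr7:32011212-32011271 (Cebpa), chr1:189651079-189651138 (Prox1) and chr5:146195375-146195434 (Cdx2). Whether a probe lies in a coding exon or a UTR was not given in the sources used here.

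The products of each tissue followed its label. All 11 hepatocyte products on the array were higher in liver, and 10 of 11 intestinal epithelial products, all but Lct, were higher in colon. Smooth muscle (7 of 7), adipose (6 of 6) and enteroendocrine (8 of 9) markers were also higher in colon, as were 4 of 6 bile duct markers, with 1 higher in liver. Skeletal muscle (4 of 6), pancreas (4 of 8) and lymphocyte (3 of 6) markers were higher in liver and 0 of them in colon. The part of these cell types in the tissue differences below was not tested. Arrays had median Cy3 signals of 3.78 to 7.20 times background, and Cy3 was well above background for 26.1% to 71.9% of probes. Of the livers, 3 stood apart, and several factors below moved with them. On HF-low-low replicate 6 and HF-low-suf replicates 4 and 5 the log2 ratios of all probes had an SD of 0.533, 0.527 and 0.600, against 0.811 to 0.968 on the other 9 livers. The mean log2 ratio of the intestinal epithelial products was −3.23, −3.03 and −3.43 on those livers and −4.38 to −3.91 on the others. Pancreas markers also lay higher there, at −0.95, −0.86 and −1.17 against −2.09 to −1.60. The hepatocyte products, at 2.08, 1.96 and 1.77, stayed within the 1.63 to 2.32 of the others. The cause was not tested. Liver HF-low-suf replicate 4 and colon HF-low-suf replicate 5 also had the strongest pool signal, 12.7 and 18.1 times background in Cy5, against at most 7.54 times elsewhere. Outlier spots made up 8.81% of liver HF-low-suf replicate 4 and at most 1.30% of any other array.

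The first comparison asked how each factor differed between liver and colon of the same mice. Of the 10 main probes, 5 were higher in liver (Onecut1, Prox1, Foxa2, Cebpa and Foxa3) and 4 were higher in colon (Cdx2, Klf5, Cdx1 and Foxa1), at an adjusted p below 0.05 over all probes and a fold change above 1.5. Hnf4a passed the p but not the fold change. Over all probes 11.4% were called higher in liver and 12.2% higher in colon, or 4688 and 5021 probes. With median centring in place of loess that split was 2675 and 6472 probes, while 4 and 4 of the factors were called. By their means, both diet groups of one tissue ranked above both of the other in all 10 genes, and the 2 groups of a tissue overlapped in every case. The 12 livers and 12 colons did not overlap for 8 of the 10 genes, all but Foxa3 and Cebpa; over all probes 12.2% showed no overlap. The median difference, liver minus colon, was 0.59 over the 10 genes and 0.02 over all probes.

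**Figure D1:**
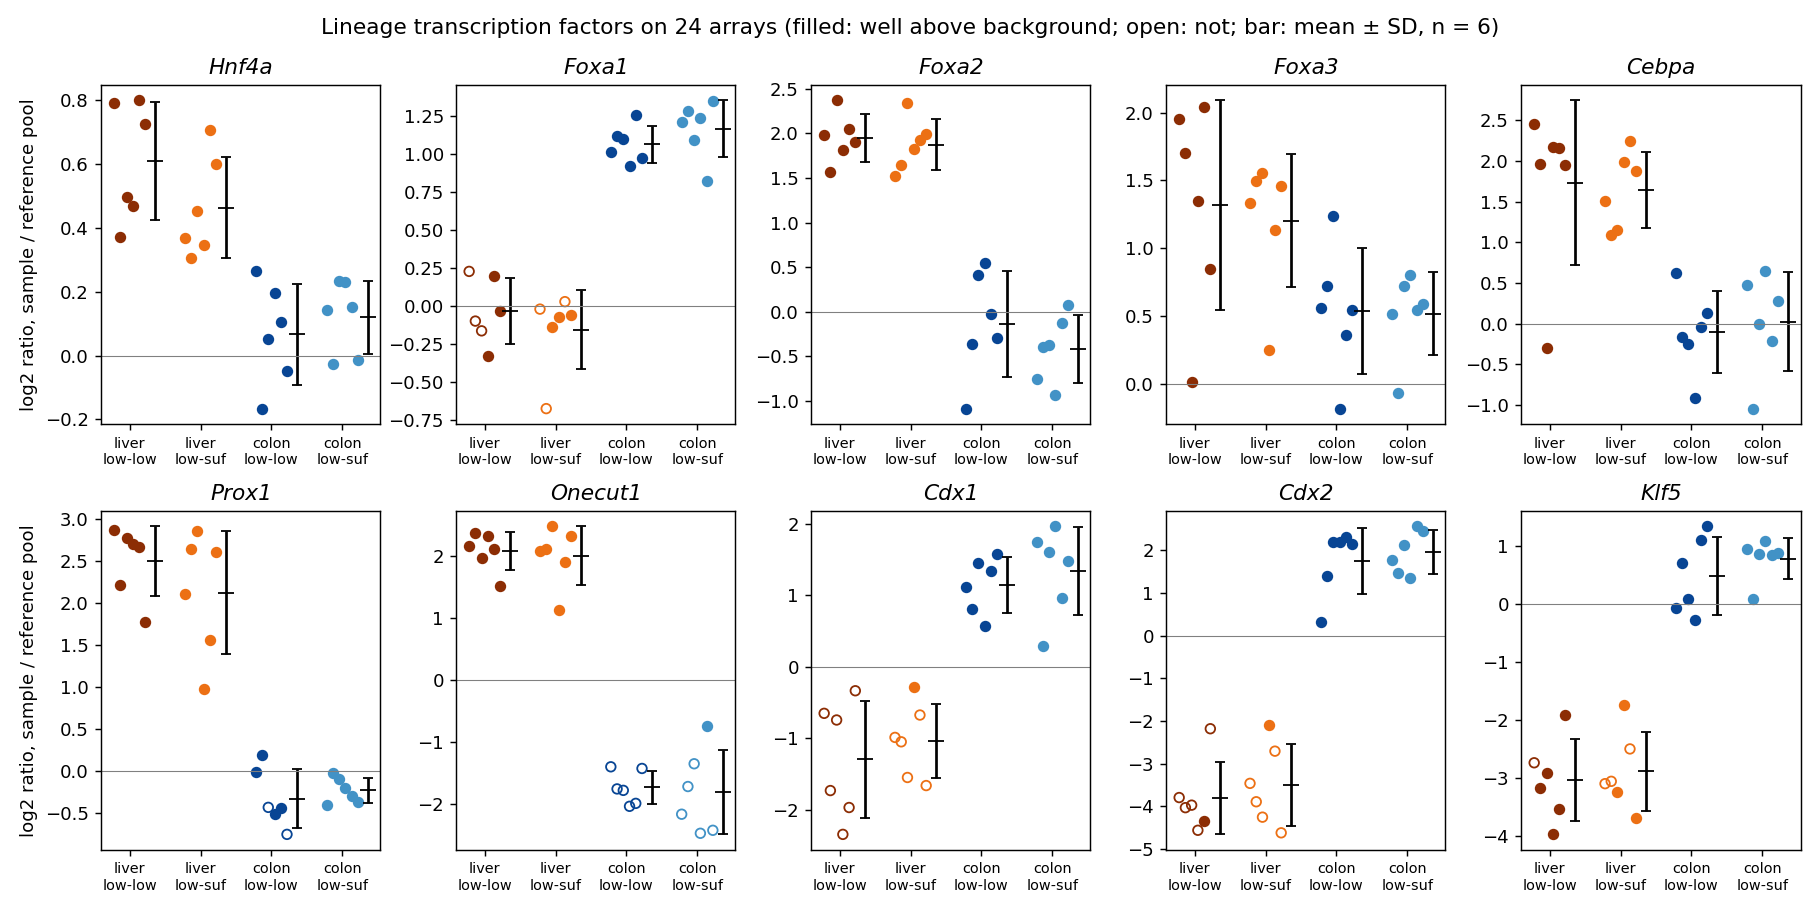
Log2 ratio of sample to reference pool (y axis) for the main probe of each of the 10 genes in the 4 groups (x axis), 6 arrays each; filled points were well above background, open points were not, and the black marks give the mean and SD. Hnf4a and Foxa3 differed little between the tissues beside Cdx2, whose livers sat between −4.62 and −2.09 and colons between 0.32 and 2.57.

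The 3 forkhead genes differed in direction. Foxa2 lay between 1.52 and 2.37 (median 1.91) in the 12 livers and between −1.09 and 0.55 (median −0.33) in the 12 colons. Every liver was thus above every colon, by a mean of 2.19 ± 0.14 (SE) on the log2 scale, or 4.55-fold (limma, adjusted p = 7.0e-13). Its probe was printed 10 times on each array. The SD of those 10 spots had a median of 0.0262 within an array, and single spots gave tissue differences between 2.16 and 2.23. These spots share their RNA, labelling and hybridisation, so they do not count as replicates. Foxa1 ran the other way, with livers between −0.68 and 0.23 (median −0.07) and colons between 0.83 and 1.35 (median 1.11). The difference of −1.21 ± 0.09 made it 2.31-fold higher in colon (limma, adjusted p = 4.6e-12), and Foxa1 was well above background on 6 of 12 livers and on all 12 colons. Foxa3 was higher in liver by 0.73 ± 0.19, or 1.66-fold (limma, adjusted p = 0.0032). Its livers ranged from 0.01 to 2.04 (median 1.40) and its colons from −0.18 to 1.24 (median 0.55), and liver exceeded colon in 10 of 12 mice (two-sided exact sign-flip permutation, p = 0.0200). The exceptions were the mouse of HF-low-low replicate 3, with 0.01 in liver and 1.24 in colon, and that of HF-low-suf replicate 4, with 0.25 and 0.80. The Foxa3 call was lost with median centring in place of loess (0.37) and on the first scan day alone, where the difference was as large (0.73) on 6 mice.

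Among the hepatocyte factors, Onecut1 was higher in every liver than in any colon. Its livers lay between 1.12 and 2.48 (median 2.11) and its colons between −2.48 and −0.75 (median −1.77), a difference of 3.82 ± 0.16 or 14.1-fold (limma, adjusted p = 7.1e-17). The probe was well above background on all 12 livers and on 1 of 12 colons, colon HF-low-suf replicate 5, the array with the strongest pool signal. In colon it was therefore measured at or near background, and the fold was read against such values. Prox1, a homeodomain factor of hepatocytes that also marks lymphatic endothelium, lay between 0.98 and 2.86 (median 2.62) in liver and between −0.75 and 0.19 (median −0.33) in colon. That was a difference of 2.59 ± 0.16, or 6.00-fold (limma, adjusted p = 2.8e-13). Its 3 lowest livers were the 3 arrays of narrow ratios, and without them the difference was 2.86 ± 0.12. Of 5 markers of lymphatic and sinusoidal endothelium, 1 was higher in liver and 1 in colon.

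Cebpa, a leucine zipper protein that holds hepatocytes out of the cell cycle and also acts in fat cells, was 3.30-fold higher in liver (1.72 ± 0.23; limma, adjusted p = 5.8e-07). Livers ranged from −0.30 to 2.45 (median 1.95) and colons from −1.04 to 0.64 (median −0.02). The overlap came from 1 liver, HF-low-low replicate 3, at −0.30, while the other 11 livers were at 1.09 or above. Liver exceeded colon in 11 of 12 mice (two-sided exact sign-flip permutation, p = 0.000977). This was the same liver that had the lowest Foxa3 value. The second Cebpa probe (0.35) and 1 of the other Hnf4a probes (−0.38) were also at their lowest of the 12 livers there, as was the mean log2 ratio of the hepatocyte products (1.63, against up to 2.32). Foxa2 stood at 2.37, Prox1 at 2.77 and Onecut1 at 1.97. Without that mouse the difference was 1.91 for Cebpa and 0.93 for Foxa3.

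Hnf4a differed least. Its livers lay between 0.31 and 0.80 (median 0.48) and its colons between −0.17 and 0.26 (median 0.12). The groups did not overlap, and liver exceeded colon in 12 of 12 mice, yet the difference was only 0.44 ± 0.07 or 1.36-fold (limma, adjusted p = 1.7e-05). With median centring in place of loess it was 0.072 ± 0.14 (limma, unadjusted p = 0.612). Its SD was 0.172 in liver and 0.138 in colon, within a diet, below the median of 0.294 and 0.278 over probes that were well above background. The other Hnf4a probes differed by 0.39 ± 0.13 and 0.34 ± 0.17.

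All 3 intestinal factors were higher in colon. Cdx2 lay between −4.62 and −2.09 (median −3.94) in liver and between 0.32 and 2.57 (median 2.14) in colon. The difference of −5.52 ± 0.27 corresponded to 45.9-fold (limma, adjusted p = 1.9e-15). It was well above background on 12 colons and on 2 livers, so in most livers its value sat at background and the fold was read against such values. Cdx1 lay between −2.34 and −0.29 (median −1.02) in liver, where 1 of 12 arrays was well above background, and between 0.29 and 1.97 (median 1.40) in colon, a 5.30-fold difference (−2.41 ± 0.21; limma, adjusted p = 1.6e-10). Klf5 lay between −3.97 and −1.74 (median −3.08) in liver and between −0.28 and 1.35 (median 0.85) in colon, a 12.1-fold difference (−3.60 ± 0.21; limma, adjusted p = 5.5e-14). Unlike the Cdx genes, Klf5 was well above background on 8 of the 12 livers. Colon was above liver in 12 of 12 mice for Cdx1, Cdx2, Klf5 and Foxa1. For each of these, and for Hnf4a, Foxa2, Prox1 and Onecut1, the two-sided exact sign-flip permutation over 12 mice gave p = 0.000488, the smallest it can give.

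**Figure D2:**
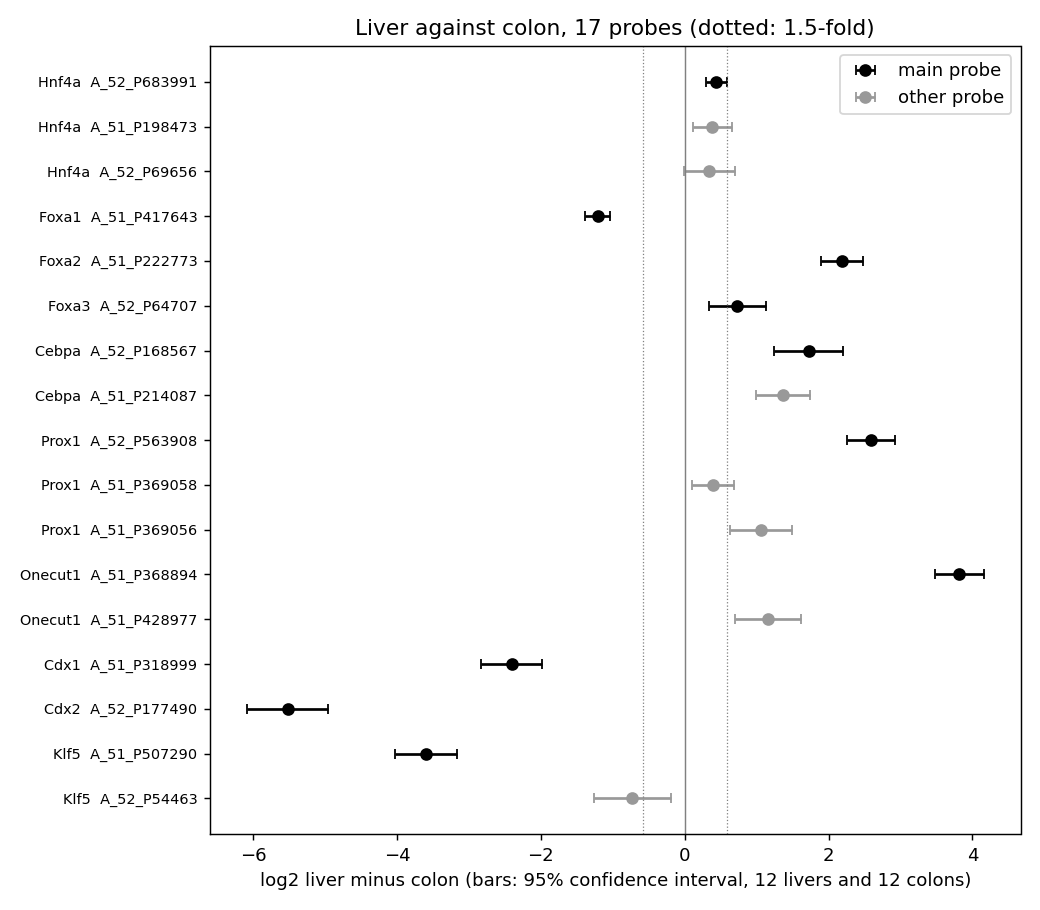
Difference in log2 ratio, liver minus colon (x axis), for all 17 probes (y axis), with 95% confidence intervals over 12 livers and 12 colons; black points are main probes, grey points other probes, and dotted lines mark 1.5-fold. The second probes of Prox1, Onecut1 and Klf5 keep the sign of the main probe at a smaller size.

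The 7 other probes all had the sign of their gene's main probe, and 13 of the 17 probes were called. Sizes differed where the second probe was dim. For Onecut1 it gave 1.16 ± 0.22 and was well above background on 4 livers and 2 colons. For Klf5 it gave −0.73 ± 0.26, on 1 liver and 9 colons. The other Prox1 probes gave 1.06 ± 0.21 and 0.39 ± 0.14, the latter not called, and were well above background on at most 5 livers and 1 colon. The first of them was dim on all 12 colons, which bounds the fold at 1.04 or more (at least 1.04-fold higher in liver). That bound sets the mean Cy3 signal of the livers against, on each colon array, the higher of the probe's own signal and the lowest signal of any probe well above background. The main Prox1 probe was designed on a cDNA clone rather than on the RefSeq transcript used for these 2. The second Cebpa probe, well above background on 11 livers and 10 colons, gave 1.37 ± 0.18.

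Other factors of the same lineages were read from 2 further lists. Of 15 other liver transcription factors, 8 were higher in liver and 0 in colon, and of 14 measured intestinal ones 10 were higher in colon and 0 in liver. On the liver side the most different as measured were Onecut2, the paralogue of Onecut1 (4.73 ± 0.12), which was well above background on 1 of 12 colons, and the homeodomain gene Hhex (4.41 ± 0.20), on 8 of 12. On the colon side it was Klf4, a zinc finger factor of mature gut epithelium (−4.71 ± 0.13). The crypt factor Myb was well above background on 0 of 12 livers and all 12 colons, which bounds it at least 7.98-fold higher in colon (limma, adjusted p = 3.5e-12). The median difference was 0.94 for the liver list and −1.62 for the intestinal list, against 0.02 over all probes. Gata6, a zinc finger factor of gut endoderm, was higher in colon by as much as Foxa1 (−1.21 ± 0.08).

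**Figure D3:**
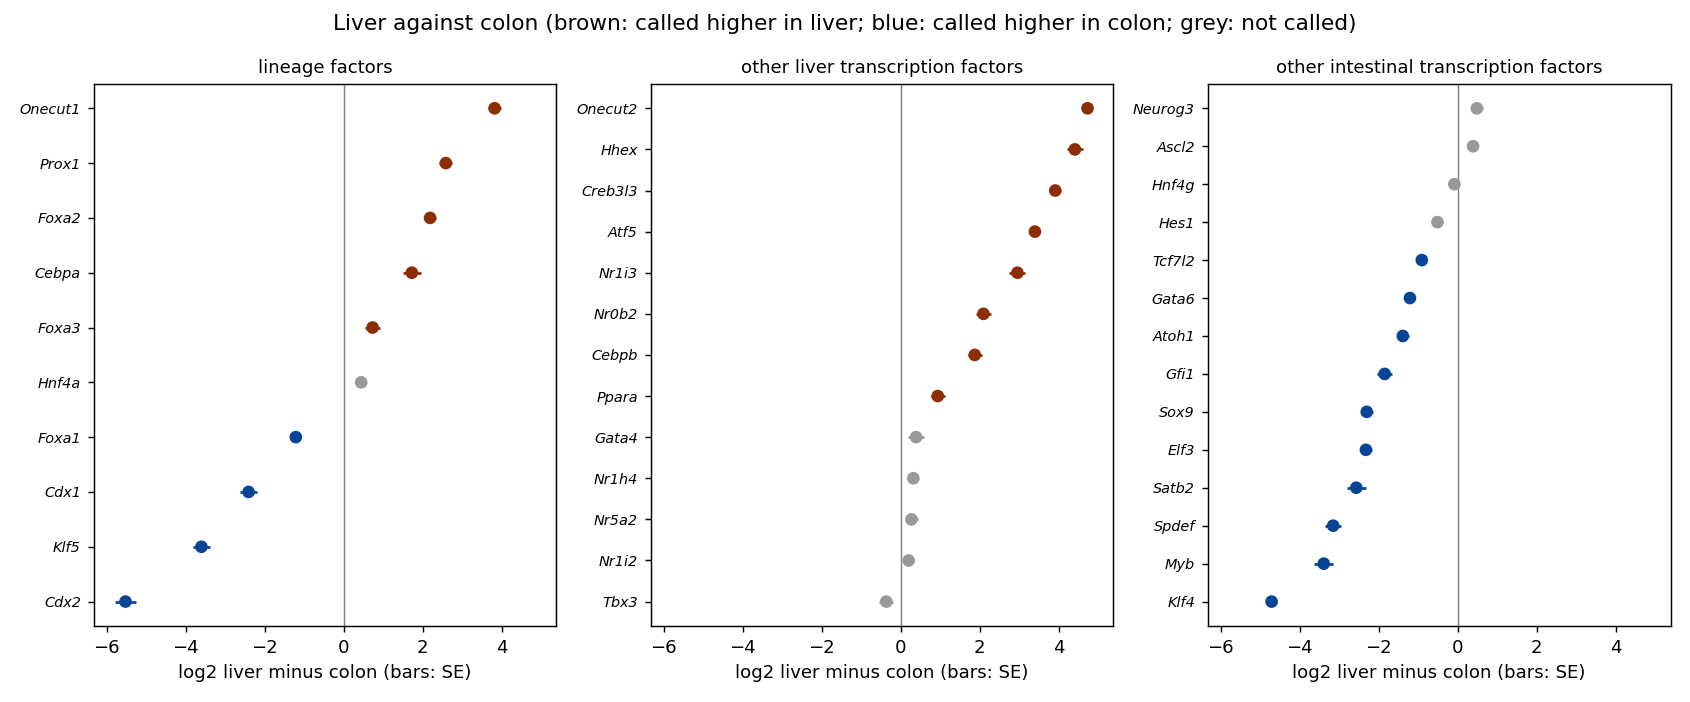
Difference in log2 ratio, liver minus colon (x axis, bars give the SE), for the 10 lineage factors, 13 of the 15 other liver and 14 other intestinal transcription factors; brown points were called higher in liver, blue points higher in colon and grey points were not called. The liver list runs from −0.37 (Tbx3) to 4.73 (Onecut2) and the intestinal list from −4.71 (Klf4) to 0.48 (Neurog3).

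For each factor the genes with the most similar pattern over the 24 arrays were found among 12691 genes, by the root mean square (RMS) difference between log2 ratios centred on their means. Klf5 was closest to Slc44a4 (RMS 0.228, against a median of 1.89 over all candidates), Klk1b8 (0.256) and Egfbp2 (0.258). Genes named here were picked as the smallest, so they lie below the median by choice. The measure spans both tissues, so the size of the tissue difference enters it. That difference was −3.69, −3.79 and −3.49 for these genes and −3.60 for Klf5. Cdx2 was closest to Tmem54 (0.385), Degs2 (0.418) and 9130012O13Rik (0.425), with a median of 2.85 over candidates. Cdx1 was closest to Kitl (0.341), Car4 (0.346) and Cldn15 (0.368), of a median of 1.35, and Foxa1 to Gata6 (0.195), Scrib (0.196) and AA409316 (0.197), of 0.732. On the liver side Onecut1 lay nearest to Shroom1 (0.358), Kmo (0.377) and Cyp26a1 (0.391), of 1.998. Prox1 lay nearest to Kcnn2 (0.275), Edg1 (0.283) and 3110001K24Rik (0.295), of 1.43, and Foxa2 to Acot4 (0.274), 2310016A09Rik (0.282) and 9130016M20Rik (0.300), of 1.23. Cebpa lay nearest to Mthfd1 (0.393), Sephs2 (0.396) and Got2 (0.421), of 1.15. Foxa3 lay nearest to Als2cl (0.353), B3gat3 (0.356) and AW124722 (0.367), of 0.758. Hnf4a was followed by Cnot8 (0.114), Stau1 (0.137) and Map2k4 (0.138), of 0.514.

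Within liver the factors varied by different amounts. The SD within a diet was 0.905 for Cdx2, 0.789 for Cebpa, 0.693 for Klf5, 0.687 for Cdx1 and 0.649 for Foxa3. Cdx2 was well above background on 2 and Cdx1 on 1 of 12 livers, so their spread was read at or near background. The 3 livers of narrow ratios held the 3 highest values of Cdx2 (−2.18, −2.09 and −2.71), and also the 3 highest of Klf5 (−1.91, −1.74 and −2.50). They held the 3 lowest of Prox1 (1.78, 0.98 and 1.56) and of Onecut1 (1.52, 1.12 and 1.91, with the next at 1.97). Of the 4 highest Cdx1 values they held 3 (−0.33, −0.29 and −0.67), and the other was −0.65. Hnf4a stood at 0.73, 0.35 and 0.71 there. Without those livers the tissue difference was −5.95 ± 0.22 for Cdx2, −3.88 ± 0.19 for Klf5 and 4.01 ± 0.16 for Onecut1, and 9 of the 10 factors were called as before.

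**Figure D4:**
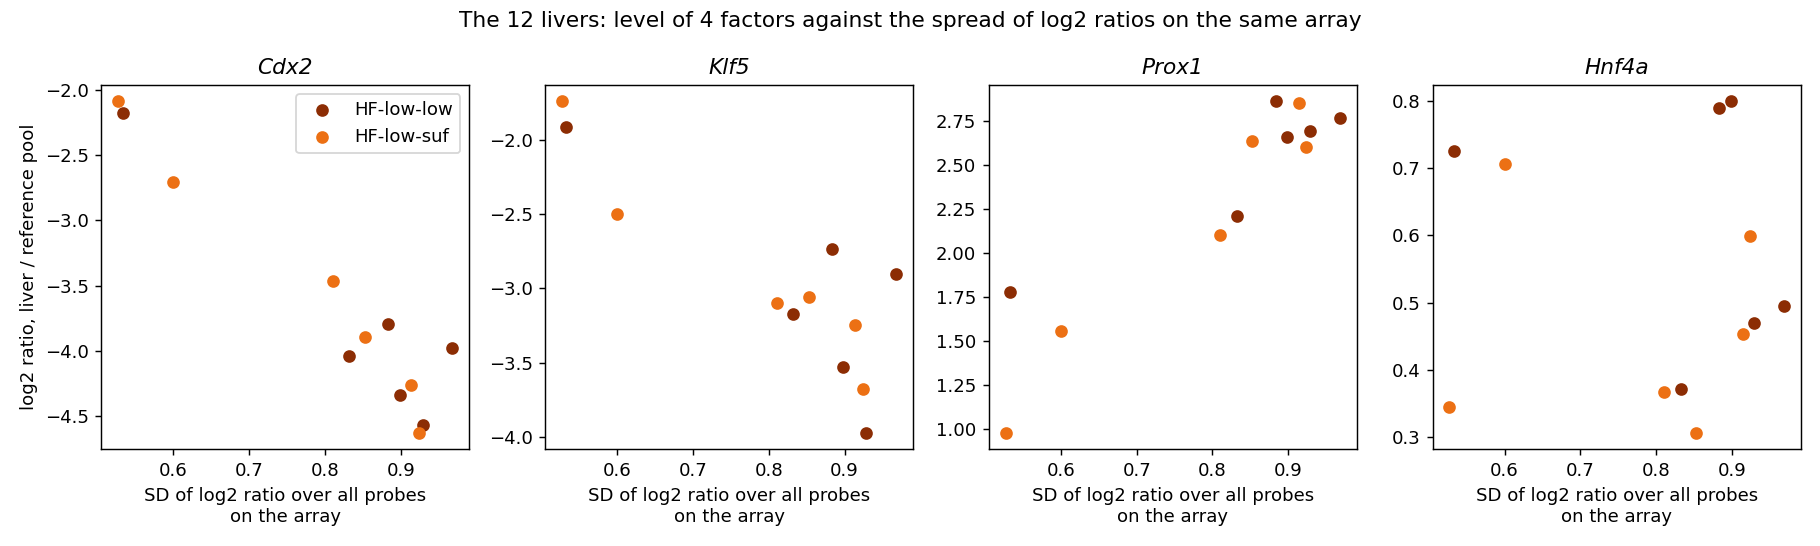
Log2 ratio of Cdx2, Klf5, Prox1 and Hnf4a in the 12 livers (y axis) against the SD of log2 ratios over all probes of the same array (x axis), by diet. The 3 livers with an SD of 0.527 to 0.600 have the highest Cdx2 and Klf5 and the lowest Prox1 values.

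The second comparison asked whether selenium and folate supply after weaning changed these factors in either tissue. Differences are HF-low-suf minus HF-low-low, with the direction set by the labels, which put the sample in Cy3. The study states the same direction, with positive fold changes where supplementation raised expression. The signs it lists for its array results were nevertheless opposite to those measured here, and the reason was not tested. In colon, 0 of the 10 factors passed an unadjusted p below 0.01 with a fold change above 1.5, and 0 had an unadjusted p below 0.05 (limma), while 0.168% of all probes were called and 2.98% had a p below 0.05. Among the main probes, the largest differences in colon were 0.30 ± 0.27 for Klf5 and −0.29 ± 0.25 for Foxa2. Klf5 colons lay between −0.28 and 1.35 (median 0.40) on HF-low-low and between 0.08 and 1.09 (median 0.87) on HF-low-suf, so the ranges overlapped (limma, unadjusted p = 0.276; two-sided exact permutation, p = 0.374). Foxa2 colons lay between −1.09 and 0.55 (median −0.16) on HF-low-low and between −0.93 and 0.07 (median −0.39) on HF-low-suf (limma, unadjusted p = 0.272; exact permutation, p = 0.340). Single colons moved both values. Without HF-low-low replicate 4 Klf5 differed by 0.15 and Foxa2 by −0.15, without HF-low-low replicate 6 Klf5 differed by 0.47, and without HF-low-low replicate 1 Foxa2 differed by −0.48 ± 0.22 (limma, unadjusted p = 0.0428). Cdx2, at 0.32 to 2.31 (median 2.17) and 1.34 to 2.57 (median 1.96), differed by 0.20 ± 0.32, and its lowest colon was HF-low-low replicate 1. The 95% confidence intervals of the 10 factors in colon all held 0, and the interval for Hnf4a ran from −0.21 to 0.31.

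In liver 0 of the 10 factors were called and 0 had an unadjusted p below 0.05 (limma), against 0.117% of probes called and 2.13% with a p below 0.05. Among the main probes, Prox1 had the largest difference, −0.38 ± 0.30. Its livers lay between 1.78 and 2.86 (median 2.68) on HF-low-low and between 0.98 and 2.85 (median 2.35) on HF-low-suf (limma, unadjusted p = 0.236; two-sided exact permutation, p = 0.294). Of the 3 livers of narrow ratios 1 was HF-low-low and 2 were HF-low-suf, and without them the Prox1 difference was −0.09 ± 0.20. Cdx2, at background in most livers, differed by 0.31 ± 0.45 with them and 0.08 ± 0.25 without. Onecut1 (−0.07 ± 0.22), Foxa2 (−0.07 ± 0.16) and Cebpa (−0.09 ± 0.39) differed by less than their errors. Without HF-low-low replicate 3, the liver of low Cebpa, the Cebpa difference was −0.50 ± 0.21 (limma, unadjusted p = 0.0354). Hnf4a livers lay between 0.37 and 0.80 (median 0.61) on HF-low-low and between 0.31 and 0.71 (median 0.41) on HF-low-suf. The difference was −0.15 ± 0.13 (limma, unadjusted p = 0.268; two-sided exact permutation, p = 0.171). On each of the 6 slides, which held 1 liver of either diet, the HF-low-suf liver had the lower value with the main Hnf4a probe. The gap was 0.0415 at the least and 0.422 at the most in log2 ratio. With the other Hnf4a probes the HF-low-suf liver was the higher on 2 of 6 and on 1 of 5 slides. This pattern was picked from 10 genes in both tissues, and the share of all probes that show it was not counted. With the slide as a block the Hnf4a difference still missed the threshold (unadjusted p = 0.216).

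**Figure D5:**
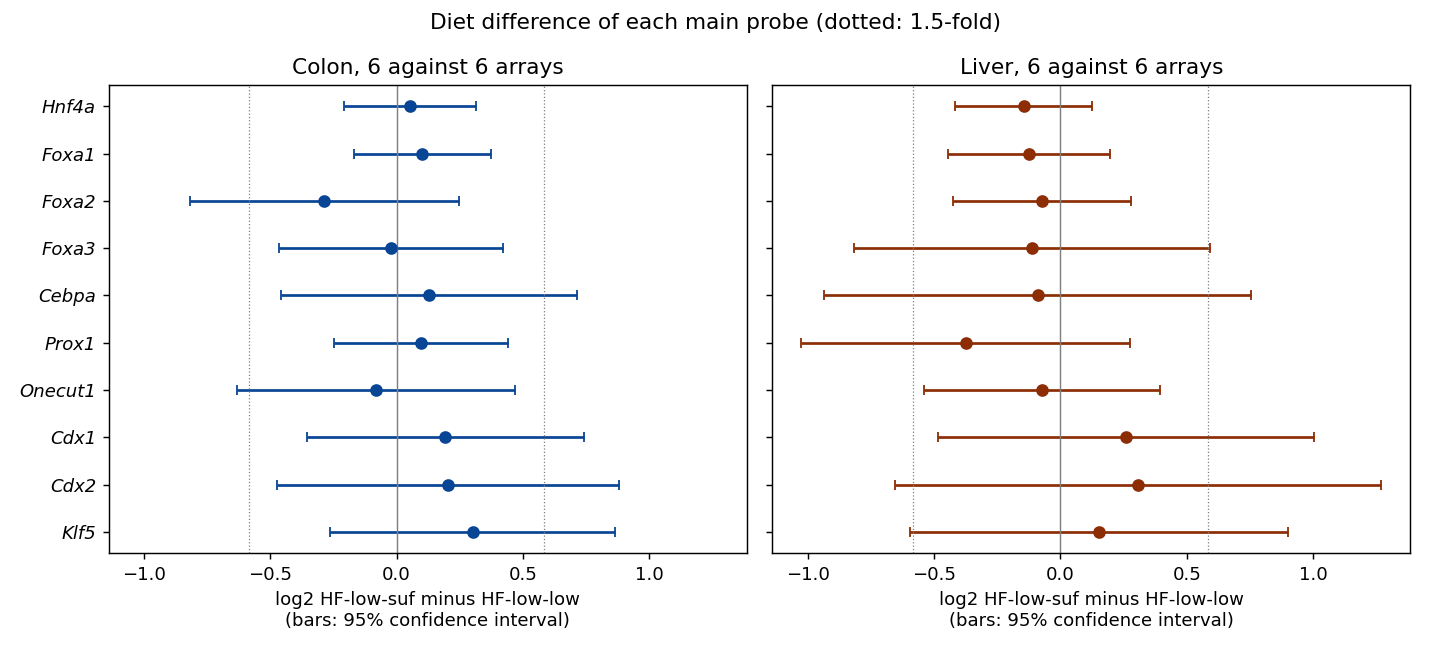
Difference in log2 ratio, HF-low-suf minus HF-low-low (x axis), of the main probe of each factor in colon and in liver, 6 against 6 arrays, with 95% confidence intervals; dotted lines mark 1.5-fold. Every interval holds 0, and the widest in liver is that of Cdx2, from −0.65 to 1.27.

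The adjusted p was at least 0.9999 for every factor in both tissues (limma), and over all probes 0 passed an adjusted p below 0.05. In liver 7 of the 10 factors were lower on HF-low-suf and in colon 7 of 10 were higher, with medians of −0.08 and 0.10 against 0.01 and −0.01 over all probes. Without the livers of narrow ratios, Foxa3, Onecut1 and Klf5 changed sign in liver. Turned to match the signs of the study's array results, 7 of 10 would be higher in liver and 7 of 10 lower in colon. A turn of the dyes would also put Alb, here 5.20 higher in liver, higher in colon. The diet difference in liver minus that in colon was tested in 1 fit over the 24 arrays, where 0 of the 10 factors had an unadjusted p below 0.01 or below 0.05 (limma) while 1.62% of all probes had one below 0.01 and 6.43% one below 0.05. It was −0.47 ± 0.32 for Prox1 (unadjusted p = 0.159) and −0.20 ± 0.15 for Hnf4a (unadjusted p = 0.193). Of the 15 other liver and 14 other intestinal factors, 0 were called for diet in either tissue. Fat cells also make Cebpa. The 6 adipose markers averaged 2.58 in liver HF-low-suf replicate 1, −1.77 to −0.25 in the other 5 livers of that diet and −1.83 to −0.82 in the 6 HF-low-low livers. Their part in the Cebpa values was not tested.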

How the data were processed

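RNA of colon and liver from 12 mice was hybridised on 24 two-colour Agilent arrays, 4 on each of 6 slides, scanned on 2 days. The authors deposited 1 Feature Extraction file per array. The intensity values used, as deposited, are mean signals and local background medians of Cy3 and Cy5, not yet corrected or normalized. Per the labels, the submitters' processing notes name limma. Groups came from the labels.

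Signals were background corrected by normexp (offset 50), 1639 control spots of 45018 and the outlier spots were dropped, arrays were loess normalized and repeated spots averaged (limma 3.58.1, R 4.3.3). Liver and colon were compared in all 24 arrays with the mouse, known from the labels, as a random block (statmod 1.5.0, consensus correlation 0.158; liver and colon of a mouse deviated with a median r of 0.146). Calls needed a Benjamini-Hochberg adjusted p below 0.05 and a fold change above 1.5. Diets were compared in each tissue's 12 arrays, at an unadjusted p below 0.01 and 1.5-fold, the thresholds of the study's methods, which name loess and limma. Permutation tests were exact, over 924 assignments for diet and sign flips of 12 mice for tissue. Scripts were tested on simulated data. Alternatives were other background corrections, median centring, Cy3 alone, dim probes left out, blocks for mouse, slide and scan day, each scan day alone, and each mouse or array left out; leaving out 3 livers was chosen after their values were seen. Named were all 10 factors with every probe, 3 nearest genes each and the 2 most different genes per list as measured; others were named after their values were seen, and 2 genes of the liver list are not reported here singly. Factors and lists were chosen with earlier results of these data known. Replicates correlated at 0.655 to 0.938, and precision rests on how many arrays a group had. Of 23837 probes with a RefSeq accession, 22937 matched current names; genes carry the names used in those files.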

Additional observations from a re-analysis of the deposited data

Results flagged for a closer look

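Over the 40 groups of 6 arrays (10 factors in 4 groups), 6 held 1 array that stood apart from the other 5 by Dixon's ratio; chance flags about 1 in 20 groups. Cebpa in liver HF-low-low replicate 3 was −0.30, with the next liver of the group at 1.95. Foxa3 in liver HF-low-suf replicate 4 was 0.25, with the next at 1.13, and Cdx2 in liver HF-low-low replicate 6 was −2.18, with the next at −3.80, on arrays where it was not well above background. Both of these livers are among the 3 with narrow log2 ratios. Foxa1 in liver HF-low-suf replicate 2 was −0.68, with the next at −0.14, on an array where it was not well above background. Colon HF-low-suf replicate 2 was low for 2 factors, Foxa3 at −0.070 (next 0.51) and Klf5 at 0.084 (next 0.84).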

How the results depend on the processing

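Between liver and colon, 9 of the 10 factors were called in every alternative but 2, median centring and the first scan day alone, where 8 were; the one lost was Foxa3 (0.37 and 0.73). Hnf4a, which had passed the p only, fell to 0.072 with median centring (limma, unadjusted p = 0.612), where the probes called split into 2675 higher in liver and 6472 higher in colon, against 4688 and 5021. Every main probe kept its direction between the tissues in all of them, and of the other probes only Prox1 A_51_P369058 (0.39) lost its gene's call. The signals as processed by Feature Extraction moved the median of all probes to −0.19 between the tissues, against −0.0022 to 0.03 under the other scalings. For diet, 0 of the 10 factors were called in either tissue, or for the difference between tissues, under any alternative, and small differences changed sign; the causes were not tested.

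In colon the sign turned for Foxa3 with median centring (0.13) and on scan day 2 alone (0.41), for Onecut1 with processed signals (0.24) and median centring (0.019), for Cebpa (−0.25) and Prox1 (−0.087) on scan day 1 alone, and for Cdx2 on scan day 2 alone (−0.087). It also turned with other probes of Hnf4a (−0.0024) and Prox1 (−0.021). In liver it turned for Foxa1 on day 2 alone (0.019), Foxa2 with median centring (0.0013), Foxa3 with median centring (0.024), on day 1 alone (0.24) and without the 3 livers of narrow ratios (0.050), and Cdx1 on day 1 alone (−0.15). Onecut1 in liver turned with plain background subtraction (0.031), no background correction (0.039), processed signals (0.038), median centring (0.046), day 1 alone (0.056), without the 3 livers (0.061) and with its other probe (0.45). Klf5 in liver turned with plain subtraction (−0.0064), processed signals (−0.14), day 1 alone (−0.19) and without the 3 livers (−0.0062). Leaving out 1 array at a time, the colon differences ranged from −0.17 to 0.12 for Foxa3, −0.034 to 0.34 for Cebpa, −0.29 to 0.051 for Onecut1 and −0.087 to 0.33 for Cdx2. Those in liver ranged from −0.17 to 0.011 for Foxa2, −0.37 to 0.079 for Foxa3, −0.50 to 0.055 for Cebpa, −0.18 to 0.10 for Onecut1 and −0.077 to 0.38 for Klf5.

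The background counts moved more. In colon 69 probes were called for diet, and 13 with no background correction, 26 with median centring, 3 without dim probes, 113 with the scan day as a block, 278 on day 1 alone, and 23 (without HF-low-low replicate 1) to 257 (without HF-low-low replicate 5) with 1 array left out. In liver 48 were called, and 12 with no background correction, 2 with median centring, 20 with Cy3 alone, 2 without dim probes, 2 on day 2 alone, 144 in a fit of all 24 arrays, 144 without the 3 livers, and 9 (without HF-low-low replicate 1) to 304 (without HF-low-low replicate 3) with 1 array left out. For the difference between tissues 666 were called, and 127 with processed signals, 182 with median centring, 383 with Cy3 alone, 63 without dim probes, 415 with no replicate block, 79 on day 2 alone, and 324 (without HF-low-low replicate 2) to 1121 (without HF-low-low replicate 6) with 1 mouse or array left out. The replicate numbers name slides, and same-numbered arrays of the 2 diets deviated with r of −0.09 to 0.24 in colon and −0.50 to 0.53 in liver, so the diets were not paired; the slide as a replicate block gave 92 probes in colon and 131 in liver. Dim probes, among them Onecut1 in colon and Cdx1 and Cdx2 in liver, limit how far these values reach below background.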
